A study of Mus musculus with 18 samples.

Results

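The comparison described here sets 3 RNA-seq libraries of Nrp1+ regulatory T cells (Treg) against 3 libraries of conventional T cells (Tconv), all from wild type mice. The libraries were taken by their titles from a series of 18 libraries in 6 groups of 3, and every gene that reached 1 FPKM in 3 or more of these 6 was tested, which left 11747 of 26665 genes. FPKM is the number of fragments per kilobase of transcript, scaled to the mapped fragments of a library. Both populations came from the spleens of wild type C57BL/6 mice that carry the Foxp3EGFP reporter allele, which marks cells that express Foxp3. The other 4 groups of the series are Nrp1-negative Treg from the same kind of mice, and Nrp1+ Treg, Nrp1-negative Treg and Tconv from CD28-/- mice with the same reporter allele, which lack the costimulatory receptor CD28. The labels give no age, do not say how many mice a library holds and do not describe the gates of the sort, so a p-value weighs a difference only against the spread of these libraries, and that spread may be technical.

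Treg are the CD4 T cells that hold immune responses in check. The transcription factor Foxp3 sets up and keeps their state, and neuropilin 1, encoded by Nrp1, is a surface receptor known from most Treg that arise in the thymus. The study's design names the Nrp1+ subset tTreg. Treg restrain other T cells by taking up interleukin 2 through a high-affinity receptor that they cannot feed with their own cytokine, by removing costimulatory ligands with CTLA-4, by releasing active TGF-beta from its latent form and by making adenosine. Tconv are the remaining CD4 T cells, a mixture of naive, memory and helper cells.

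The sort markers separated the libraries. Foxp3 (GRCm38 chromosome X, 7573644 to 7595245) was at 96.9, 112 and 137 FPKM in Nrp1+ Treg, against 0.203, 0.184 and 0.285 FPKM in Tconv. Nrp1 (chromosome 8, 128358604 to 128503363) was at 55.6, 69.3 and 83.5 FPKM in Nrp1+ Treg, against 2.99, 4.99 and 5.08 FPKM in Tconv. These levels check the labels and are no finding, since both genes define the Nrp1+ Treg group. Whether Tconv were gated on Nrp1 is not given. The T cell markers Cd3d, Cd3e and Cd3g were present in all 6 libraries with differences of -0.12, 0.02 and -0.07 on the log2(FPKM + 1) scale, none of which passed the test. Of the 8 tested T cell markers Cd4 (-0.67) and Thy1 (-0.98) were called lower and none higher. Neither was called when Tconv replicate 2 or any 1 of the Nrp1+ Treg libraries was left out, and without Tconv replicate 1 Cd2 and Cd5 were called higher beside them. Defining markers of B cells (Ms4a1 at 0.0568 FPKM or less) and the CD8 T cell gene Cd8a (0.680 FPKM or less) were near 0 in every library, while Cd8b1 was at 5.61 to 9.71 FPKM over the 6 libraries and was not called (-0.38).

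Summed over all genes, the libraries held between 548383 and 590016 FPKM in Nrp1+ Treg, and 994139, 583452 and 568101 FPKM in Tconv replicates 1, 2 and 3. Between 11194 and 11741 genes reached 1 FPKM in each of the 6 libraries. Tconv replicate 1 stood apart: the small RNA locus Mir5105 took 19.4% of its sum, the heat shock gene Hspa1a was at 86.2 FPKM, and its Spearman correlation with the other Tconv libraries was 0.920 and 0.907, where libraries of the same group correlated at 0.955 to 0.972 otherwise. Counts without it are given beside many of the lists below. Some calls of genes named below depended on single libraries: Bcl2a1a, Bcl2a1d, Cd247, Cd72, Eomes, Gzma, Il10, Nfkb1, Nfkb2, Nr4a2, Plxnb1, Plxnc1, Tgfbr1, Tgfbr2, Themis and Uhrf1 were each not called in at least 1 of the 6 fits that left out 1 library. These were drawn only from genes whose calls were followed in every alternative. Other genes named below as examples of a list may depend on 1 library too. The depth behind a value is unknown, because no reads per gene entered these tests, and intervals for counting error are left out.

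Among the largest differences of the ranked genes were those of genes that define Treg and of genes that were close to silent in them. Symbols of microRNAs, other small RNAs, pseudogenes, unnamed gene models and antigen receptor segments were left out of this ranking. The microRNA symbols called higher are listed further below. limma called 1235 genes at a Benjamini-Hochberg adjusted p under 0.05, of which 835 (7.11% of those tested) were higher and 400 (3.41%) lower in Nrp1+ Treg. A change is the difference of mean log2(FPKM + 1) between the groups ± SE, Nrp1+ Treg minus Tconv with n = 3 libraries each, and this scale understates the fold of genes with low FPKM. Among the called genes 594 were higher and 213 lower by at least 1, and 53 were higher and 9 lower by at least 3. The median change was 1.29 among genes called higher, -1.03 among those called lower and -0.03 over all tested genes. In all 1235 the 3 libraries of one population lay outside the range of the other, as they did in 28.6% of all tested genes.

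Of the tested genes 280 passed the filter on low values through Nrp1+ Treg alone and 99 through Tconv alone, and such genes had to differ. They made up 257 of the genes called higher and 84 of those called lower. Without Tconv replicate 1 the count was 1063 higher and 595 lower, with 814 and 390 of the calls above among them and none of opposite sign. Leaving out any of the other 5 libraries gave between 568 and 702 higher and between 203 and 244 lower. With the values of each library rescaled to a common sum without small RNA symbols, 934 genes were higher and 220 lower, a share of 80.9% higher in place of 67.6%, and the median of all genes moved to 0.18. With a term for the replicate number, a block that takes out what equally numbered libraries share, 1127 were higher and 609 lower.

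**Figure D1:**
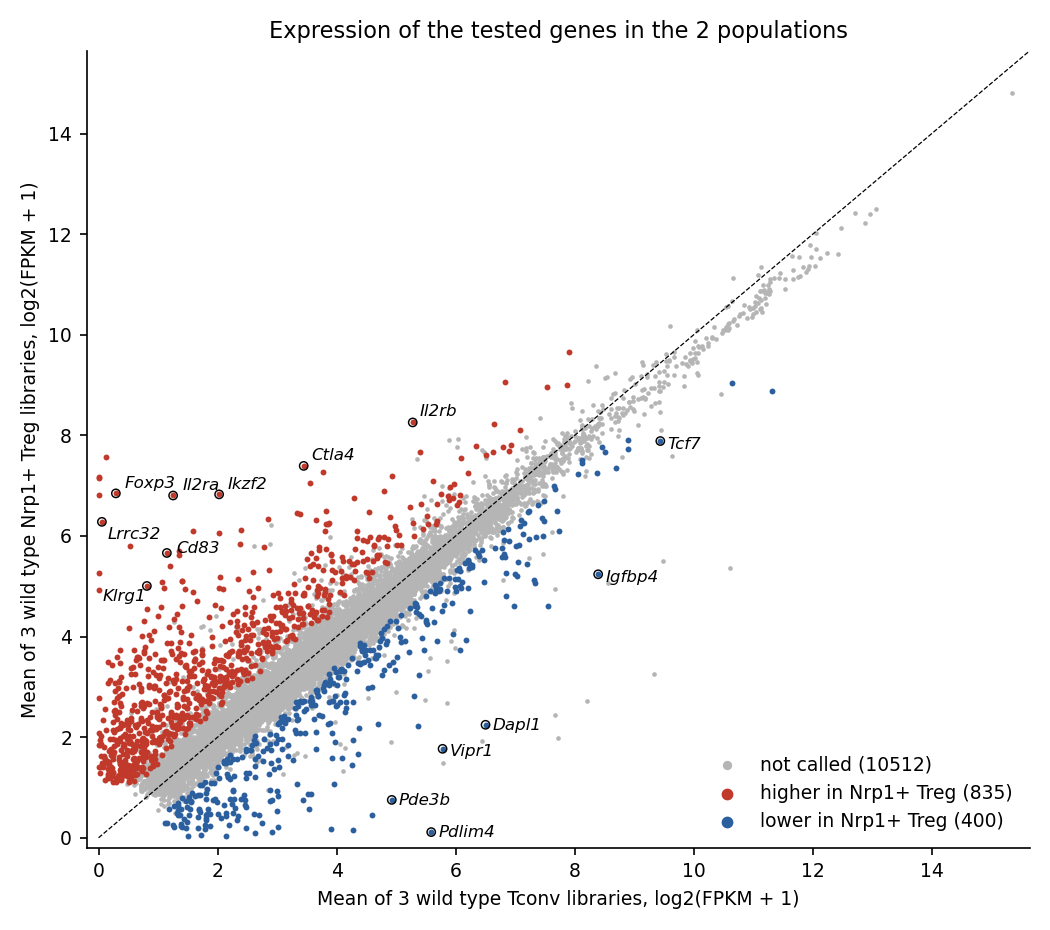
Mean log2(FPKM + 1) of the 11747 tested genes in 3 wild type Nrp1+ Treg libraries (vertical axis) and in 3 wild type Tconv libraries (horizontal axis), with the 835 genes called higher in red, the 400 called lower in blue and the others in grey. Foxp3, Lrrc32 and Il2ra lie far above the diagonal, near 0 or 1 in Tconv, while Pdlim4 lies on the floor of the Nrp1+ Treg axis.

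The genes of Treg identity were almost uniformly higher. A list of 34 tested genes known from Treg, which leaves out Foxp3 and Nrp1, held 33 genes that rose and none that fell, with a median change of 3.06 against -0.03 over all genes. The list was assembled from knowledge of Treg with earlier results of these data known, so its direction is no independent evidence, and 8 of its members passed the filter through Nrp1+ Treg alone. Leaving out 1 library at a time gave 31 to 34 higher.

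Il2ra (chromosome 2, 11642807 to 11693193) encodes the alpha chain of the interleukin 2 receptor, CD25. It was at 88.5, 117 and 131 FPKM in Nrp1+ Treg, against 1, 2.01 and 1.24 FPKM in Tconv (5.55 ± 0.22, adjusted p = 4.06e-05). Lrrc32 (chromosome 7, 98489283 to 98502181) encodes GARP, the protein that holds latent TGF-beta on the Treg surface. It was at 62.0, 77.1 and 94.5 FPKM in Nrp1+ Treg, against 0.00908, 0.0116 and 0.1 FPKM in Tconv, the largest change after Foxp3 among the named genes (6.23 ± 0.19, adjusted p = 1.47e-05). Both genes were thus near the floor in all 3 Tconv libraries and among the well expressed genes of all 3 Nrp1+ Treg libraries.

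Ikzf2 (chromosome 1, 69531214 to 69687245) encodes Helios, an Ikaros family factor of Treg, and was at 79.8, 126 and 141 FPKM in Nrp1+ Treg, against 1.38, 4.90 and 3.81 FPKM in Tconv (4.80 ± 0.37, adjusted p = 0.000393). Its relative Ikzf4, which encodes the Foxp3 partner Eos, was at 29.2, 44.6 and 55.1 FPKM in Nrp1+ Treg, against 0.484, 1.84 and 1.85 FPKM in Tconv (4.22 ± 0.33, adjusted p = 0.000424). The groups did not overlap for either gene. Of the other 3 family members tested, Ikzf1, the founding member Ikaros, went the other way, at 61.2, 66.4 and 68.2 FPKM in Nrp1+ Treg, against 108, 155 and 161 FPKM in Tconv (-1.08 ± 0.19, adjusted p = 0.0113, not called when any 1 of the Nrp1+ Treg libraries or Tconv replicate 2 was left out). Ikzf3 and Ikzf5 had changes of 0.58 and 0.12 and did not pass.

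Ctla4 (chromosome 1, 60887000 to 60915832), the inhibitory receptor that competes with CD28 for its ligands, was at 195, 145 and 165 FPKM in Nrp1+ Treg, against 16.8, 7.94 and 7.13 FPKM in Tconv (3.95 ± 0.31, adjusted p = 0.000399). Gpr83, a G protein-coupled receptor long used as a Treg marker, changed by 3.16 ± 0.29, and Swap70 by 3.31 ± 0.17. Folr4, an older symbol for the folate receptor gene Izumo1r, was the most abundant member per length in Nrp1+ Treg, at 473, 516 and 611 FPKM, against 151, 107 and 90.5 FPKM in Tconv (2.22 ± 0.23). Lag3, an inhibitory receptor, was the member that did not pass (18.6, 17.2 and 20 FPKM in Nrp1+ Treg, against 14.1, 9.56 and 7.49 FPKM in Tconv, adjusted p = 0.0703), and it passed without Tconv replicate 1.

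**Figure D2:**
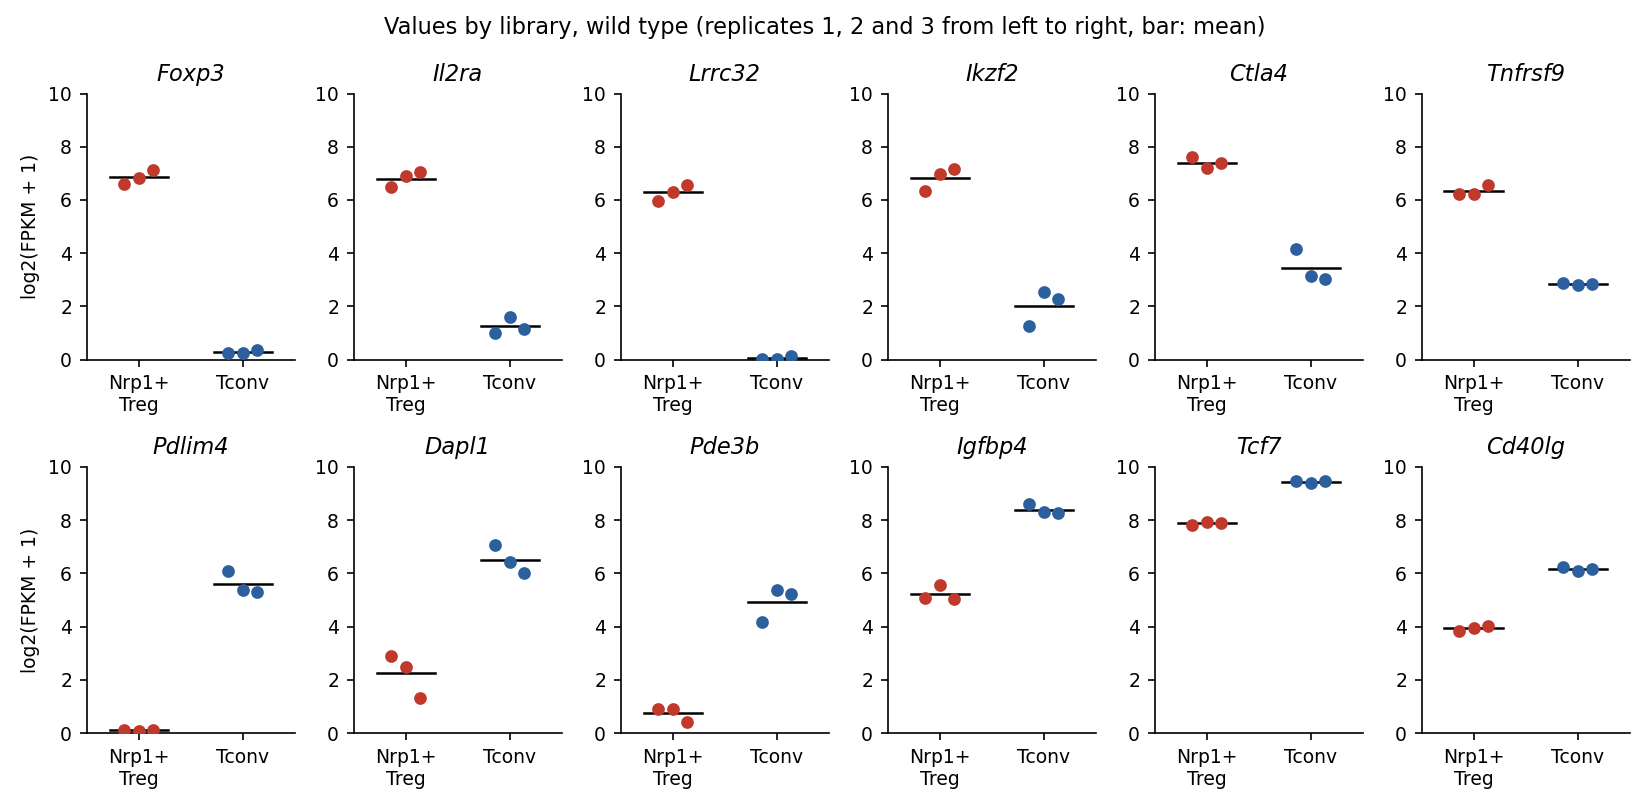
log2(FPKM + 1) of 12 genes in each wild type library, Nrp1+ Treg on the left and Tconv on the right of every panel, with replicates 1, 2 and 3 from left to right and a bar at the mean of 3 libraries. The upper 6 genes are high in all Nrp1+ Treg libraries and the lower 6 in all Tconv libraries, with no overlap in any panel.

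Some of the largest increases belonged to genes with less familiar places in T cells. Rln3, which encodes the neuropeptide relaxin 3, was at 62.8, 62.4 and 79.8 FPKM in Nrp1+ Treg, against 2.45, 1.41 and 2.27 FPKM in Tconv (4.52 ± 0.20, adjusted p = 4.82e-05). Penk (chromosome 4, 4133531 to 4138819), the precursor of the enkephalin opioid peptides, was at 44.0, 42.7 and 60.2 FPKM in Nrp1+ Treg, against 2.34, 1.15 and 1.29 FPKM in Tconv (4.28 ± 0.23, adjusted p = 9.78e-05). Cd83, a surface protein of activated lymphocytes and dendritic cells, was at 44.1, 48.5 and 57.1 FPKM in Nrp1+ Treg, against 1.23, 1.30 and 1.12 FPKM in Tconv (4.51 ± 0.16, adjusted p = 2.55e-05). All of these had Tconv libraries within a few FPKM of each other. The actin-binding coronin gene Coro2a (4.35 ± 0.17), the glutathione transferase gene Gsta4 (3.73 ± 0.19) and the unconventional myosin gene Myo1e (3.65 ± 0.17) were close behind.

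Among the 15 largest decreases of the ranked genes were genes that Treg hardly expressed. Pdlim4 (chromosome 11, 54054928 to 54069014), which encodes a PDZ and LIM domain protein of the actin cytoskeleton, was at 0.0990, 0.0680 and 0.0775 FPKM in Nrp1+ Treg, against 67.4, 40.3 and 38.6 FPKM in Tconv (-5.48 ± 0.23, adjusted p = 4.24e-05). Ggt5, a gamma-glutamyltransferase that converts leukotriene C4, was at 0.0734, 0.182 and 0.0670 FPKM in Nrp1+ Treg, against 18.7, 16.3 and 20.4 FPKM in Tconv (-4.13 ± 0.15, adjusted p = 2.85e-05). Slc16a5, a monocarboxylate transporter gene, was at 0.343, 0.612 and 0.196 FPKM in Nrp1+ Treg, against 22.5, 22.1 and 25 FPKM in Tconv (-4.14 ± 0.17, adjusted p = 4.06e-05). Each was thus below 1 FPKM in all Nrp1+ Treg libraries and above 16 FPKM in all Tconv libraries.

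Pde3b (chromosome 7, 114415281 to 114539251), the cyclic nucleotide phosphodiesterase known as a direct target of repression by Foxp3, was at 0.866, 0.896 and 0.352 FPKM in Nrp1+ Treg, against 16.9, 40.8 and 36.7 FPKM in Tconv (-4.17 ± 0.34, adjusted p = 0.000479). Dapl1 (chromosome 2, 59484653 to 59505020), a gene of resting lymphocytes, was at 6.55, 4.66 and 1.5 FPKM in Nrp1+ Treg, against 132, 86.3 and 63.2 FPKM in Tconv (-4.26 ± 0.44, adjusted p = 0.00127). Vipr1, the receptor for vasoactive intestinal peptide, fell by 4.01 ± 0.17, and the lectin receptor gene Klrd1 (CD94) by 3.73 ± 0.14. The rest of the 15 ran from a change of -3.16 (Igfbp4) to -2.68 (Cyp2s1), and among them were the TGF-beta family receptor gene Acvrl1 (-2.70 ± 0.15), the sulfotransferase gene Hs3st3b1 (-2.89 ± 0.24) and the lipid flippase gene Atp8b4 (-2.80 ± 0.27).

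The bases just upstream of some of these genes are shown because the genes stand at the ends of the comparison. Each run holds the 250 bases before the RefSeq transcription start on the gene's strand (assembly GRCm38.p6), in lower case, with matches to any of 8 searched motifs in capitals. Il2ra lies at chr2:11642542-11642791 on the plus strand and Ctla4 at chr1:60908775-60909024 on the plus strand. Pdlim4 lies at chr11:54069018-54069267 on the minus strand and Dapl1 at chr2:59484403-59484652 on the plus strand.
Il2ra: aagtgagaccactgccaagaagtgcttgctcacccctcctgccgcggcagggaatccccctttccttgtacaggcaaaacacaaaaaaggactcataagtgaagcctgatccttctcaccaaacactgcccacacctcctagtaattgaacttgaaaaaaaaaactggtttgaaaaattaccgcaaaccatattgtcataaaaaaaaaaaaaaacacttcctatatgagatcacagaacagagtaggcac
Ctla4: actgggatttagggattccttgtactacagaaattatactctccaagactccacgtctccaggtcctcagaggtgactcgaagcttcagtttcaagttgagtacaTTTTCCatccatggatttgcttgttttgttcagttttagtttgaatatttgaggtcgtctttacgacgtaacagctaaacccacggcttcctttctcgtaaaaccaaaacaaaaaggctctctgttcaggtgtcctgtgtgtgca
Pdlim4: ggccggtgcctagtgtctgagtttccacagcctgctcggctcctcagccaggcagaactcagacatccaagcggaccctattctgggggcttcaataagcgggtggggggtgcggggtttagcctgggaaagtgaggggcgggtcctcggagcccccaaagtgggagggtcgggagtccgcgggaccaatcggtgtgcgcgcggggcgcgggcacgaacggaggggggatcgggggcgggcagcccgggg
Dapl1: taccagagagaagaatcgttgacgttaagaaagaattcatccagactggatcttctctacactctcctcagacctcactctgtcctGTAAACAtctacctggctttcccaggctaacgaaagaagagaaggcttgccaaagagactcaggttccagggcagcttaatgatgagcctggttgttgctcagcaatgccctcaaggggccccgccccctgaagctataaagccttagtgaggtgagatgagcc
The capitals mark a match to the NFAT motif on the reverse strand in Ctla4, starting 145 bases before the start, and a match to the forkhead motif on the reverse strand in Dapl1, starting 164 bases before it. The window of Il2ra has a G+C content of 42.4% and that of Pdlim4 of 69.2%, and neither holds any of the 8 motifs.

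The motifs were searched on both strands of 32851 RefSeq windows of 250 bases before to 50 after a start, and 594 of the genes called higher (795 windows), 308 of those called lower (414 windows) and 7783 of the 10512 tested and not called (9723 windows) had at least 1 window. The forkhead motif TGTTTAC stood in 3.77% of windows of genes called higher and 3.14% of those of genes called lower, against 2.49% of those of genes not called and 3.65% of all windows. The STAT5 motif TTCNNNGAA stood in 9.18% and 4.59%, against 6.96% and 8.30%, and the AP-1 motif TGANTCA in 7.55% and 3.62%, against 4.53% and 7.81%. The NFAT motif GGAAAA (21.9% and 22.0%, against 20.6% and 23.4%), the TCF/LEF motif CTTTGA (13% and 12.6%, against 11.7% and 16%) and the RUNX motif TGTGGTT (4.65% and 5.07%, against 3.80% and 5.27%) were spread more evenly. The ETS motif CCGGAAG stood in 7.42% and 9.42%, against 20.8% of windows of genes not called and 8.86% of all. The KLF motif GGGCGTG stood in 10.8% and 15.5%, against 15.2% and 8.44%. These are shares of windows that hold the letters, not counts of sites, and they carry no test.

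Of the genes of the interleukin 2 pathway more rose than fell. Of 17 tested genes of the receptor, its Janus kinases and STAT5 targets 6 rose and 1 fell, with a median of 0.62 (5 to 8 higher with 1 library left out, and 2 lower without Tconv replicate 1). Socs2 among these passed the filter through Nrp1+ Treg alone. Il2rb, the beta chain, was at 257, 298 and 371 FPKM in Nrp1+ Treg, against 37.3, 39.9 and 36.4 FPKM in Tconv (2.98 ± 0.17, adjusted p = 0.000127). Il2rg, the common gamma chain shared by several cytokine receptors, was at 266, 272 and 280 FPKM in Nrp1+ Treg, against 350, 291 and 292 FPKM in Tconv, and did not pass (-0.18 ± 0.16). The alpha and beta chains of the receptor were therefore several-fold higher in every Nrp1+ Treg library, while the gamma chain had no called difference.

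The STAT5 targets Cish and Socs2, both inhibitors of cytokine signalling, rose by 3.12 ± 0.16 and 3.56 ± 0.17. Cish was at 78.1, 82.2 and 101 FPKM in Nrp1+ Treg, against 9.56, 8.02 and 9.74 FPKM in Tconv. Pim1, a survival kinase, rose by 1.45 ± 0.22, and Stat5a itself had a change of 0.63 ± 0.18 that did not pass (adjusted p = 0.0748). Il7r, the interleukin 7 receptor that naive and memory cells depend on, was at 49.9, 63.0 and 69.6 FPKM in Nrp1+ Treg, against 110, 170 and 176 FPKM in Tconv (-1.29 ± 0.23, adjusted p = 0.0123). Il7r was not called when Nrp1+ Treg replicate 1 or 2 or Tconv replicate 2 was left out. The cytokine gene Il2 was below the filter, at 0.0414, 0 and 0 FPKM in Nrp1+ Treg, against 1.14, 1.37 and 0.618 FPKM in Tconv, and was not tested.

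Costimulatory receptors of the TNF receptor superfamily made up another part of the increases. Of 18 tested members and TRAF adaptors 7 rose and 1 fell (5 to 9 higher with 1 library left out, and 2 lower without Tconv replicate 1), with a median of 0.49. Among them Tnfrsf8 passed the filter through Nrp1+ Treg alone. Tnfrsf9 (4-1BB), a receptor of recently stimulated T cells, was at 74.5, 74.4 and 93.3 FPKM in Nrp1+ Treg, against 6.29, 6.05 and 6.12 FPKM in Tconv (3.51 ± 0.15, adjusted p = 4.24e-05). Tnfrsf4 (OX40) was at 133, 146 and 186 FPKM in Nrp1+ Treg, against 15.3, 11.9 and 11.2 FPKM in Tconv (3.49 ± 0.19, adjusted p = 0.000103). Tnfrsf18 (GITR) was at 203, 190 and 217 FPKM in Nrp1+ Treg, against 57.1, 34.3 and 35.3 FPKM in Tconv (2.28 ± 0.22, adjusted p = 0.000961). All 3 had clear levels in Tconv too and several-fold higher ones in Nrp1+ Treg.

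Tnfrsf8 (CD30) rose by 2.96 ± 0.23, Tnfrsf1b (TNF receptor 2) by 2.30 ± 0.18 and the death receptor gene Fas by 0.84 ± 0.19, whereas Tnfrsf1a (TNF receptor 1) fell by 0.89 ± 0.18. Tnfrsf1a was the only member called lower, and no member was when any 1 of the Nrp1+ Treg libraries was left out. Cd27 (0.33), Tnfrsf25 (0.57) and Tnfrsf14 (-0.23) did not pass. On the ligand side 2 of 10 rose and 2 fell. Tnfsf11 (RANKL) was at 27.0, 25.2 and 32.9 FPKM in Nrp1+ Treg, against 6.98, 8.57 and 8.88 FPKM in Tconv (1.68 ± 0.17). Cd40lg, the CD40 ligand with which helper T cells activate B cells, was at 13.3, 14.3 and 15.4 FPKM in Nrp1+ Treg, against 75.7, 67.2 and 71.2 FPKM in Tconv (-2.24 ± 0.14, adjusted p = 0.000145).

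Genes of checkpoint receptors and their ligands rose more often than they fell. Of 21 tested genes of the CD28 family, other inhibitory or costimulatory receptors and some of their ligands 11 rose and none fell, with a median of 1.09 (10 to 14 with 1 library left out). Among these 21, 2 passed the filter through Nrp1+ Treg alone. Tigit, which competes for the ligand CD155, was at 76.6, 81.1 and 100 FPKM in Nrp1+ Treg, against 8.14, 11.3 and 9.09 FPKM in Tconv (3.05 ± 0.18, adjusted p = 0.000127). Pdcd1 (PD-1) was at 41.6, 51.2 and 72.5 FPKM in Nrp1+ Treg, against 14.5, 11.9 and 9.98 FPKM in Tconv (2.07 ± 0.24, adjusted p = 0.00183). Both PD-1 ligands rose too, Pdcd1lg2 by 2.39 ± 0.22 and Cd274 by 1.10 ± 0.23. The CD28 and CTLA-4 ligand genes Cd86 (2.22 ± 0.20) and Cd80 (1.41 ± 0.14), best known from antigen-presenting cells, were at 14.9 and 2.32 FPKM or less in Nrp1+ Treg.

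Icos rose by 1.19 ± 0.17, at 52.7, 54.9 and 58.9 FPKM in Nrp1+ Treg, against 19.7, 28.7 and 23.8 FPKM in Tconv. Cd28 was at 57.5, 59.7 and 62.9 FPKM in Nrp1+ Treg, against 33.6, 82.8 and 67.3 FPKM in Tconv. The Nrp1+ Treg libraries lay inside the wide range of the Tconv libraries, and no difference was called (0.07 ± 0.32, adjusted p = 0.944, and -0.31 without Tconv replicate 1). Btla (0.06), Cd5 (0.39) and Cd96 (0.45) did not pass either.

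Genes of TGF-beta activation and signalling went both ways. Of 17 tested genes of activation and signalling 4 rose and 3 fell (2 to 6 and 1 to 4 with 1 library left out), and 2 passed the filter through Nrp1+ Treg alone. Besides Lrrc32 the integrin chain gene Itgb8, needed to free TGF-beta from its latent complex, was at 4.80, 7.71 and 11.8 FPKM in Nrp1+ Treg, against 0.0464, 0.348 and 0.446 FPKM in Tconv (2.77 ± 0.30, adjusted p = 0.00141). Tgfbr1 rose by 1.53 ± 0.35, at 15, 19.6 and 23.3 FPKM in Nrp1+ Treg, against 3.04, 7.90 and 8.27 FPKM in Tconv. Tgfbr2 fell by 0.84 ± 0.19 and the coreceptor gene Tgfbr3 by 2.33 ± 0.33. The signal transducers Smad2, Smad3 and Smad4 had changes of -0.08, 0.26 and -0.17 and did not pass.

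Effector functions of Treg followed the same direction. Of 28 tested genes of effector Treg 17 rose and none fell, with a median of 1.21 (13 without Nrp1+ Treg replicate 3, 23 without Tconv replicate 1), and 4 passed the filter through Nrp1+ Treg alone. Klrg1, an inhibitory lectin receptor of late effector cells, was at 32.3, 28.2 and 33.1 FPKM in Nrp1+ Treg, against 1.43, 0.303 and 0.711 FPKM in Tconv (4.19 ± 0.24, adjusted p = 0.00012). Itgae, the CD103 chain that binds epithelial cadherin, rose by 3.37 ± 0.18, the interleukin 33 receptor gene Il1rl1 (ST2) by 3.11 ± 0.16 and the cytokine subunit gene Ebi3 by 3.08 ± 0.26. Il10 was at 6.13, 3.10 and 4.39 FPKM in Nrp1+ Treg, against 1.62, 0.668 and 0.775 FPKM in Tconv (1.45 ± 0.26, adjusted p = 0.0128). Granzyme B (Gzmb) was nearly level, at 3.91, 2.53 and 1.87 FPKM in Nrp1+ Treg, against 4.80, 2.52 and 1.75 FPKM in Tconv (-0.06 ± 0.32).

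Among other cytokine genes the macrophage growth factor gene Csf1 rose by 2.70 ± 0.17, the epithelial growth factor gene Areg by 2.02 ± 0.30 and Lif by 1.44 ± 0.14. Il21, the cytokine of follicular helper cells, fell by 1.28 ± 0.20. Il4 (0.42 ± 0.27) and Ifng (-0.38 ± 0.54) did not pass. Ifng was at 14.4, 5.52 and 8.53 FPKM in Nrp1+ Treg, against 28.3, 6.58 and 8.45 FPKM in Tconv, with replicate 1 the highest library on both sides. The decoy receptor gene Il1r2 stood out among the remaining cytokine receptors, at 11.1, 9.85 and 12.2 FPKM in Nrp1+ Treg, against 0.366, 0.118 and 0.267 FPKM in Tconv (3.27 ± 0.16, adjusted p = 7.63e-05).

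Genes of adenosine and cyclic AMP went both ways. Nt5e (CD73), which makes adenosine from AMP, was at 68.6, 74.4 and 94.8 FPKM in Nrp1+ Treg, against 9.31, 13.2 and 12.5 FPKM in Tconv (2.66 ± 0.19, adjusted p = 0.000299). Entpd1 (CD39), which acts before it, rose by 2.20 ± 0.15 and the receptor gene Adora2a by 1.24 ± 0.18. The phosphodiesterase genes Pde4d (-0.73 ± 0.16) and Pde4b (-0.58 ± 0.13) and the adenylate cyclase gene Adcy6 (-1.55 ± 0.22) fell beside Pde3b. Of 21 tested genes 4 rose and 4 fell (8 and 5 with the replicate block), with a median of 0.26, and Pde3b passed the filter through Tconv alone.

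Transcription factor genes of effector T cells were more often higher than lower. Of 33 tested 13 rose and 2 fell, with a median of 0.62 (8 higher without any 1 of the Nrp1+ Treg libraries and 5 lower with the replicate block). Maf was at 47.5, 52.1 and 48.6 FPKM in Nrp1+ Treg, against 7.03, 18 and 9.98 FPKM in Tconv (2.08 ± 0.30, adjusted p = 0.00471). Ahr, the aryl hydrocarbon receptor, rose by 1.81 ± 0.15, Irf4 by 1.70 ± 0.18, Gfi1 by 1.6 ± 0.16, Gata3 by 1.22 ± 0.17 and Prdm1 (Blimp-1) by 0.93 ± 0.21. Eomes fell by 1.31 ± 0.27 and Runx3 by 1.07 ± 0.13, both factors of cytotoxic programmes. Tbx21 (T-bet) was at 3.95, 2.88 and 3.41 FPKM in Nrp1+ Treg, against 7.90, 4.70 and 5.04 FPKM in Tconv, and did not pass (-0.62 ± 0.21, adjusted p = 0.146). Apart from Foxp3, limma called none of 12 tested forkhead factor genes, with 1 higher and none lower at an unadjusted p under 0.05. With so few genes this count is near the shares over all tested genes, 7.11% higher and 3.41% lower. Foxo1, which keeps naive cells quiescent, was at 57.7, 59.5 and 54.3 FPKM in Nrp1+ Treg, against 53.7, 73.0 and 69.0 FPKM in Tconv (-0.18 ± 0.16), and without Tconv replicate 1 the list had 1 gene higher and 2 lower.

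Genes of naive and resting T cells were lower. Of 24 tested 12 fell and none rose, with a median of -1.01, and without Tconv replicate 1 the count was 18 lower and 1 higher. Tcf7 (chromosome 11, 52252371 to 52283014), which encodes TCF-1, was at 228, 245 and 235 FPKM in Nrp1+ Treg, against 701, 677 and 702 FPKM in Tconv (-1.55 ± 0.15, adjusted p = 0.00101). Its partner Lef1 was at 43.1, 47.9 and 40.1 FPKM in Nrp1+ Treg, against 99.1, 150 and 153 FPKM in Tconv (-1.57 ± 0.20, adjusted p = 0.0031). Both remained well expressed in Nrp1+ Treg, at levels far above those of the silenced genes. Satb1, a chromatin organiser, was at 33.9, 42.6 and 35.5 FPKM in Nrp1+ Treg, against 90.8, 134 and 167 FPKM in Tconv (-1.74 ± 0.24, adjusted p = 0.0038). Ccr7, which guides naive cells to lymph nodes, fell by 1.63 ± 0.16.

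Igfbp4, an insulin-like growth factor binding protein gene of naive T cells, was at 33.0, 46.8 and 32.1 FPKM in Nrp1+ Treg, against 388, 314 and 310 FPKM in Tconv (-3.16 ± 0.20, adjusted p = 0.00017). A related list of 24 tested genes known to be repressed in Treg, which shares members such as Tcf7 and Dapl1 with the naive list, held 16 that fell and none that rose, with a median of -1.56 (13 to 17 with 1 library left out). As with the Treg signature, knowledge of Treg chose it, and 5 members passed the filter through Tconv alone. Of 15 tested genes of TCF7, LEF1 and Wnt signalling 4 fell and none rose (2 to 6 with 1 library left out), and 1 passed the filter through Tconv alone. Ctnnb1, which encodes beta-catenin, had a change of -0.01.

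Components of antigen receptor signalling had 8 of 42 members lower and 1 higher (none higher without Tconv replicate 1), with a median of -0.09 that turned to 0.14 in the rescaled values. The lower count was 2 without Tconv replicate 3 or any 1 of the Nrp1+ Treg libraries, and 12 without Tconv replicate 1. The kinase gene Txk fell by 1.46 ± 0.20, Themis, which tunes receptor signals in thymocytes, by 1.6 ± 0.37 and the zeta chain gene Cd247 by 0.74 ± 0.17. Zap70 (0.10), Lck (-0.37), Lat (-0.75) and Plcg1 (-0.09) did not pass. The coreceptor gene Cd4 was at 167, 170 and 185 FPKM in Nrp1+ Treg, against 306, 267 and 262 FPKM in Tconv (-0.67 ± 0.15, adjusted p = 0.0318), and was called in the fit without Tconv replicate 1 but in none of the others that left out 1 library.

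**Figure D3:**
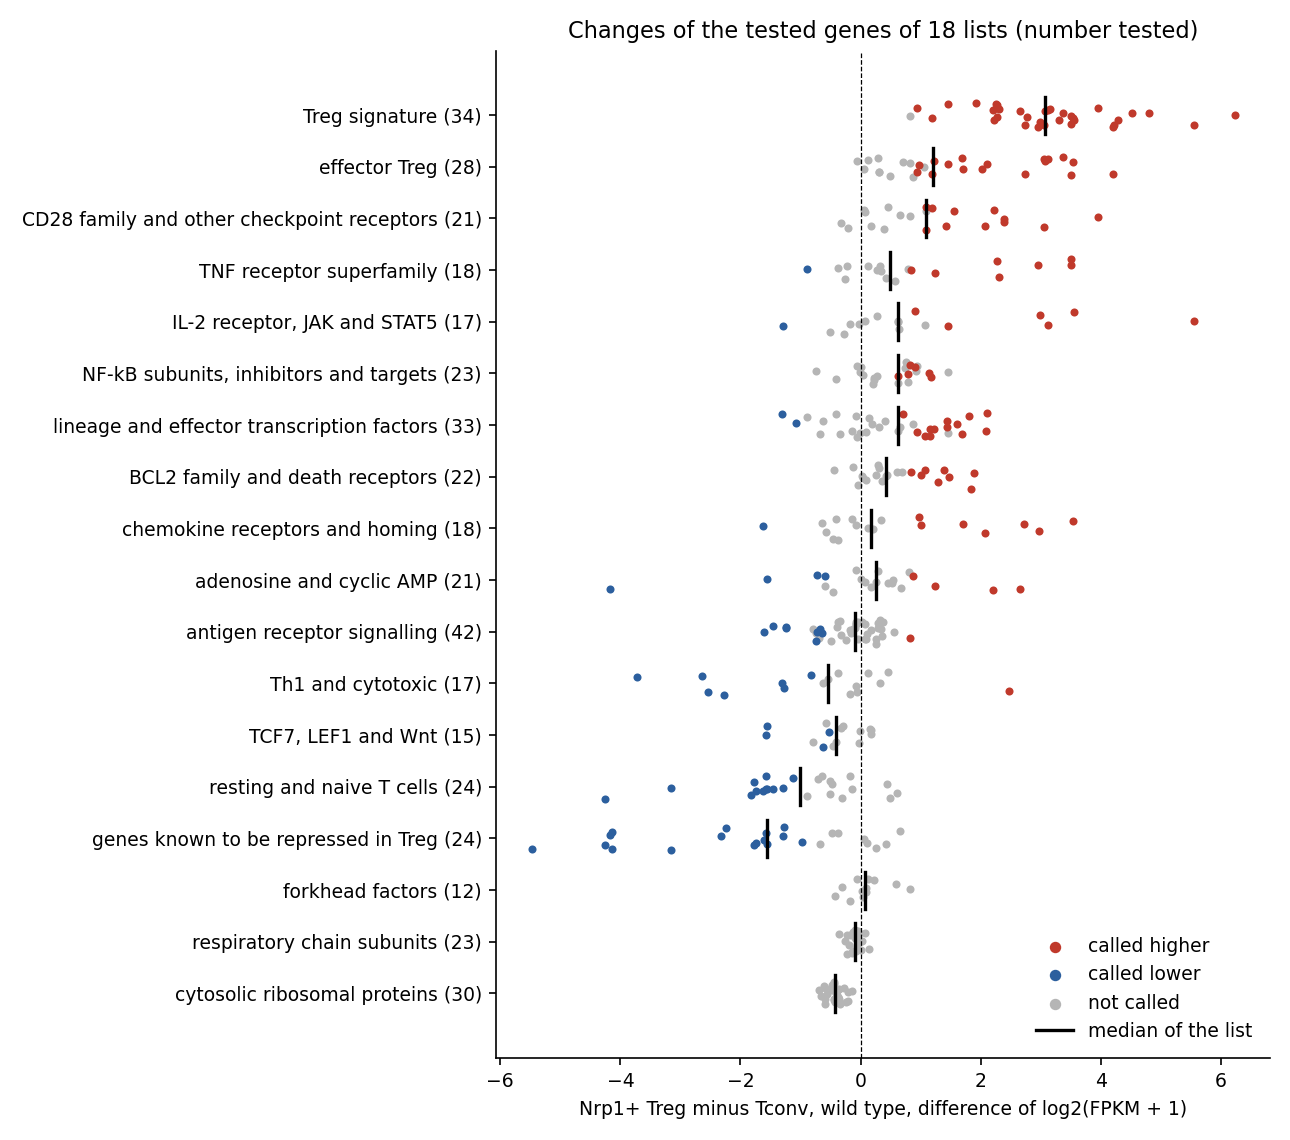
Changes of the tested members of 18 gene lists (number tested in parentheses), Nrp1+ Treg minus Tconv in wild type mice on the log2(FPKM + 1) scale, with called genes in red (higher) or blue (lower), others in grey and a black bar at the median of each list. The Treg signature list has its median at 3.06 and the list of genes known to be repressed in Treg at -1.56, while respiratory chain and ribosomal protein genes form narrow groups with no calls.

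More of the cytotoxic and Th1 genes fell than rose. Of 17 tested 7 fell and 1 rose, with a median of -0.54 (3 to 7 lower with 1 library left out), and 2 passed the filter through Tconv alone. Prf1 (perforin) was at 0.670, 1.18 and 0.694 FPKM in Nrp1+ Treg, against 10.5, 10 and 10.9 FPKM in Tconv (-2.65 ± 0.16, adjusted p = 0.00015). Gzmk was at 0.201, 0 and 0 FPKM in Nrp1+ Treg, against 9.75, 3.84 and 3.56 FPKM in Tconv, and Ccl5, a chemokine of memory and cytotoxic cells, at 42.9, 28.7 and 27.5 FPKM in Nrp1+ Treg, against 381, 132 and 82.7 FPKM in Tconv (-2.28 ± 0.52, adjusted p = 0.0352). Tconv replicate 1 was the highest library for both, and the changes without it were -2.14 and -1.66, still called. Ccl5 was not called when Tconv replicate 2 or any 1 of the Nrp1+ Treg libraries was left out. Of 9 NK cell markers 2 were tested, and Gzma fell (-1.27 ± 0.26). The summed FPKM of the 9 was 2.25, 1.73 and 3.18 in Nrp1+ Treg, against 6.15, 5.59 and 6.80 in Tconv, with the defining marker Ncr1 at 0.0873 FPKM or less, and the part of such cells in the cytotoxic values was not tested. Whether fewer cells that express a gene or less of its RNA per cell lies behind any level cannot be told apart in bulk libraries. Hopx, an atypical homeobox gene, was the member that rose, at 102, 100 and 120 FPKM in Nrp1+ Treg, against 22.9, 17.3 and 16.1 FPKM in Tconv (2.47 ± 0.18). Cxcr3 (0.13), Gzmb (-0.06) and Nkg7 (-0.54) did not pass.

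Follicular helper genes went both ways. Of 15 tested 7 rose and 3 fell (4 to 8 higher with 1 library left out, 3 lower in each), and 2 passed the filter through Tconv alone. Besides Pdcd1, Maf and Cebpa, Cd200 (1.56 ± 0.16), Tox2 (1.44 ± 0.20) and the follicle-homing receptor gene Cxcr5 (1 ± 0.22) were higher. Il21, Pou2af1 (-1.41 ± 0.17) and Sostdc1 (-1.35 ± 0.21) fell, and Bcl6, the factor that drives the follicular programme, rose by 0.71 ± 0.16.

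Of the chemokine receptor and homing genes more rose than fell. Of 18 tested 7 rose and 1, the lymph node receptor gene Ccr7, fell (5 to 7 higher with 1 library left out, and 2 lower without Tconv replicate 1). In this list Gpr15 passed the filter through Nrp1+ Treg alone. Ccr8 was at 21.6, 19.1 and 29.9 FPKM in Nrp1+ Treg, against 0.592, 1.48 and 1.28 FPKM in Tconv (3.54 ± 0.24, adjusted p = 0.000232). Gpr15, a receptor of colon homing, was at 9.02, 14.2 and 10.8 FPKM in Nrp1+ Treg, against 0.498, 0.890 and 0.331 FPKM in Tconv (2.97 ± 0.22). Ccr6 rose by 2.73 ± 0.32, Ccr4 by 2.08 ± 0.26 and Ccr2 by 1.71 ± 0.22, while Cxcr4 (0.34) and S1pr1 (-0.64) did not pass. Of 17 tested integrin and adhesion genes 5 rose and 1 fell (8 and 2 without Tconv replicate 1), with Itgb1 at 108, 113 and 118 FPKM in Nrp1+ Treg, against 49.0, 64.7 and 47.3 FPKM in Tconv (1.07 ± 0.17). Among these 17, 2 passed the filter through Nrp1+ Treg alone.

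Genes of neuropilins, semaphorins and semaphorin receptors lay on both sides. Of 11 tested genes of neuropilins, semaphorins, plexins and other semaphorin receptors, leaving out Nrp1, 4 rose and 3 fell. With 1 library left out 1 to 3 rose, the fewest without Nrp1+ Treg replicate 2 or 3. In this list 1 gene passed the filter through Nrp1+ Treg alone and 1 through Tconv alone. The semaphorin gene Sema4a, known for its role in T cell priming, was at 15.3, 18.7 and 12.9 FPKM in Nrp1+ Treg, against 66.3, 53.1 and 63.9 FPKM in Tconv (-1.91 ± 0.18, adjusted p = 0.000905). Sema4f (-1.27 ± 0.14) and Sema7a (-0.64 ± 0.13) fell as well. The plexin genes Plxnd1 (1.45 ± 0.17), Plxnc1 (0.96 ± 0.17) and Plxnb1 (0.81 ± 0.19) and Cd72, a receptor for semaphorin 4D (0.79 ± 0.19), rose.

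NF-kB and feedback genes of antigen receptor signals were partly higher. Of 23 tested NF-kB subunits, inhibitors and targets 6 rose and none fell, with a median of 0.63. That count was 1 without Tconv replicate 2 or Nrp1+ Treg replicate 3, 11 without Tconv replicate 1, and 12 with 1 lower under the replicate block. Nfkb1 was at 93.5, 101 and 120 FPKM in Nrp1+ Treg, against 55.1, 58.0 and 61.6 FPKM in Tconv (0.83 ± 0.15, adjusted p = 0.0133), and Nfkb2 rose by 0.91 ± 0.16. The inhibitor gene Tnfaip3 (A20) was at 253, 47.7 and 87.9 FPKM in Nrp1+ Treg, against 147, 22.6 and 45.4 FPKM in Tconv, and did not pass (0.92 ± 0.79, adjusted p = 0.619).

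In both populations replicate 1 was thus the highest and replicate 2 the lowest library of Tnfaip3. The same order held for the immediate early phosphatase gene Dusp1, at 388, 105 and 206 FPKM in Nrp1+ Treg, against 191, 41.5 and 84.7 FPKM in Tconv (1.2 ± 0.64), and for Hspa1a, at 34.3, 7.29 and 17.3 FPKM in Nrp1+ Treg, against 86.2, 5.48 and 19 FPKM in Tconv (-0.36 ± 0.94). Of 20 tested immediate early genes 2 rose, Egr2 (1.37 ± 0.19) and Nr4a2 (1.97 ± 0.48), 3 did without Tconv replicate 1, 1 when any of 4 other libraries was left out, and 6 with the replicate block. The share called higher over all tested genes was 7.11%. Egr2 was at 18.2, 20.4 and 28.2 FPKM in Nrp1+ Treg, against 8.16, 8.01 and 7.45 FPKM in Tconv. The orphan receptor gene Nr4a1 (0.93) and Fos (0.07) did not pass. What sets replicate 1 apart in these genes was not tested.

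Dusp4, an inhibitor of MAP kinases, was at 36.2, 22.6 and 32.6 FPKM in Nrp1+ Treg, against 3.20, 1.22 and 1.21 FPKM in Tconv (3.49 ± 0.31, adjusted p = 0.000627). Of 13 tested genes of the DUSP and Sprouty families 3 rose and 2 fell (5 and 2 with the replicate block, 1 higher without Tconv replicate 2 or Nrp1+ Treg replicate 1 or 3). Among these 13, 1 passed the filter through Nrp1+ Treg alone. Regulators of G protein signalling had 3 of 8 higher and 1 lower (4 and 2 without Tconv replicate 1). Rgs1, which dampens chemokine signals, was at 162, 106 and 134 FPKM in Nrp1+ Treg, against 23.2, 7.86 and 6.43 FPKM in Tconv (3.51 ± 0.44, adjusted p = 0.00261). Rgs16 was at 83.0, 31.2 and 69.6 FPKM in Nrp1+ Treg, against 7.6, 2.41 and 3.70 FPKM in Tconv (3.48 ± 0.45), and Rgs11 fell by 1.90 ± 0.18.

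Death and survival genes had 8 of 22 members higher and none lower, with a median of 0.43 (5 to 9 with 1 library left out). The BH3-only genes Pmaip1 (1.83 ± 0.25) and Bid (1.01 ± 0.15), which promote death, and Bcl2l1 (1.29 ± 0.16), which opposes it, rose alike. Bcl2a1a, Bcl2a1b and Bcl2a1d also rose, but they are near-identical copies among which reads can be shared. Bcl2 was at 28.9, 51.8 and 48.2 FPKM in Nrp1+ Treg, against 20.1, 30.7 and 31.7 FPKM in Tconv. Its change of 0.61 ± 0.28 did not pass (adjusted p = 0.278) and did with the replicate block (adjusted p = 0.027), and Bcl2l11 (Bim) was level at 0.03.

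Of 27 tested cell cycle genes 4 rose and none fell (1 without Tconv replicate 3 or Nrp1+ Treg replicate 1 or 3), with a median of 0.11. Over all tested genes 7.11% were called higher and 3.41% lower. At an unadjusted p under 0.05 by limma 7 of the cell cycle genes were higher and 1 lower. The proliferation marker Mki67 was at 3.64, 3.38 and 3.66 FPKM in Nrp1+ Treg, against 1.76, 2.38 and 1.47 FPKM in Tconv (0.68 ± 0.16, adjusted p = 0.0407, and 0.055 without Tconv replicate 1), and its call was lost in 9 of the alternatives tried. Of 19 tested glycolysis genes 4 rose and 1 fell (7 and 1 without Tconv replicate 1), the largest increase being that of the glucose transporter gene Slc2a3 (1.24 ± 0.14). However, 3 of these 19 passed the filter through Nrp1+ Treg alone and so had to differ. Pdk1 was at 18.3, 24.1 and 23.9 FPKM in Nrp1+ Treg, against 55.1, 80.6 and 92.3 FPKM in Tconv (-1.72 ± 0.23, adjusted p = 0.00325). limma called none of 22 tested genes of cholesterol and fatty acid synthesis (1 lower at an unadjusted p under 0.05) and none of 23 of the respiratory chain (none at an unadjusted p under 0.05). The 30 tested ribosomal protein genes also held no call by limma (1 lower at an unadjusted p under 0.05, and 1 called lower without Tconv replicate 1), although all had a change below 0, with a median of -0.43, or -0.15 without Tconv replicate 1. They summed to 46100, 43000 and 41000 FPKM in Nrp1+ Treg, against 87400, 49700 and 48500 FPKM in Tconv.

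Interferon-induced genes had 4 of 26 members higher and 2 lower. Over all tested genes 7.11% were called higher and 3.41% lower, and the small counts of this paragraph are read beside these shares. The guanylate-binding protein gene Gbp3 was at 20.6, 23.1 and 25.4 FPKM in Nrp1+ Treg, against 4.98, 4.89 and 5.55 FPKM in Tconv (1.96 ± 0.15), and Oas2, an antiviral sensor, was at 2.12, 3.15 and 3.09 FPKM in Nrp1+ Treg, against 10.9, 15.3 and 18.8 FPKM in Tconv (-2.06 ± 0.23). Isg15 (0.20) did not pass. Of 6 tested Ly6 genes 3 fell and none rose (1 without Tconv replicate 1), among them Ly6c1 (-1.83 ± 0.23) and Ly6a (-1.38 ± 0.20), neighbours of similar sequence among which reads can be shared. limma called none of 8 tested GIMAP genes (2 higher at an unadjusted p under 0.05, and 1 called higher without Tconv replicate 1). Hdac9 (1.40 ± 0.21) and Uhrf1 (0.76 ± 0.18), a partner of the maintenance DNA methyltransferase, were the calls among 19 genes of DNA methylation and Polycomb (1 lower, Tet1, without Tconv replicate 1), and Anxa4 (1.88 ± 0.19) was the call among 18 S100, galectin and annexin genes, where 5 were called without Tconv replicate 1. Each of these lists held 1 member that passed the filter through Nrp1+ Treg alone. Slamf1 (1.55 ± 0.14) was the call among 7 of the SLAM family, where 3 were called without Tconv replicate 1.

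Among marker lists of other cell types, 2 of the 4 tested B cell genes rose. Cd79b, the signalling chain of the B cell receptor, was at 9.90, 9.89 and 9.85 FPKM in Nrp1+ Treg, against 0.791, 0.641 and 0.446 FPKM in Tconv (2.75 ± 0.14, adjusted p = 9.78e-05). Cd79b passed the filter through Nrp1+ Treg alone and so had to differ. The invariant chain gene Cd74 was at 37.3, 32.1 and 49.7 FPKM in Nrp1+ Treg, against 10.9, 4.37 and 5.09 FPKM in Tconv (2.45 ± 0.33). The summed FPKM of the 13 B cell markers in the files was 51.1, 47.0 and 66.9 in Nrp1+ Treg, against 20.2, 8.81 and 9.55 in Tconv, of which Cd79b and Cd74 made up most. The defining markers Ms4a1, Pax5 and Ebf1 were at or near 0 in all 6 libraries. limma called none of the 7 tested myeloid genes (2 higher and 1 lower at an unadjusted p under 0.05, and 1 called higher without Tconv replicate 1) and none of the 3 erythroid ones (none at an unadjusted p under 0.05). Such counts among so few genes are near the shares over all tested genes, 7.11% higher and 3.41% lower. The part of other cells in the values of these marker lists was not tested.

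The Nrp1-negative Treg of the same genotype place these genes on a scale between the populations. The comparison shares the Nrp1+ Treg libraries with the one above, so it repeats none of it. limma called 267 of 11658 genes (2.29%) higher and 34 (0.292%) lower in Nrp1+ than in Nrp1-negative Treg, and 241 and 122 without Nrp1-negative Treg replicate 1. Nrp1, the basis of the sort, was at 55.6, 69.3 and 83.5 FPKM in Nrp1+ Treg, against 0.579, 0.871 and 0.911 FPKM in Nrp1-negative Treg, so that Tconv, at 2.99 to 5.08 FPKM, lay above the Nrp1-negative subset. Several of the most distinct genes against Tconv had no called difference between the Treg subsets. Il2ra was at 38.3, 97.0 and 95.9 FPKM in Nrp1-negative Treg (adjusted p = 0.715), Ctla4 at 122, 168 and 165 FPKM and Socs2 at 12.8, 28.7 and 25.7 FPKM.

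Others lay between, and those named here were also called without Nrp1-negative Treg replicate 1. Ikzf2 was at 11.1, 29.6 and 30.7 FPKM in Nrp1-negative Treg, below the Nrp1+ Treg libraries (2.32, adjusted p = 0.002) and above Tconv. Penk was at 3.38, 6.30 and 6.91 FPKM (2.96, adjusted p = 0.00013), Cd83 at 5.5, 13.1 and 8.89 FPKM (2.39, adjusted p = 0.0007) and Il1rl1 at 0.472, 0.591 and 0.515 FPKM (2.87, adjusted p = 1.3e-05), the last near its Tconv level. The low genes were arranged likewise. Igfbp4 was at 65.9, 148 and 136 FPKM in Nrp1-negative Treg (-1.56, adjusted p = 0.014), Slc16a5 at 3.47, 7.02 and 6.79 FPKM (-2.25, adjusted p = 0.00024) and Pde3b at 3.80, 8.06 and 7.42 FPKM (-2.09, adjusted p = 0.0007). Pdlim4, at 0.0355, 0.753 and 0.892 FPKM, was below 1 FPKM in both Treg subsets. Itgb1, which was higher in Nrp1+ Treg than in Tconv, was at 5.60, 11.2 and 10.5 FPKM in Nrp1-negative Treg, the lowest of the 3 populations (3.55, adjusted p = 8.4e-06).

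**Figure D4:**
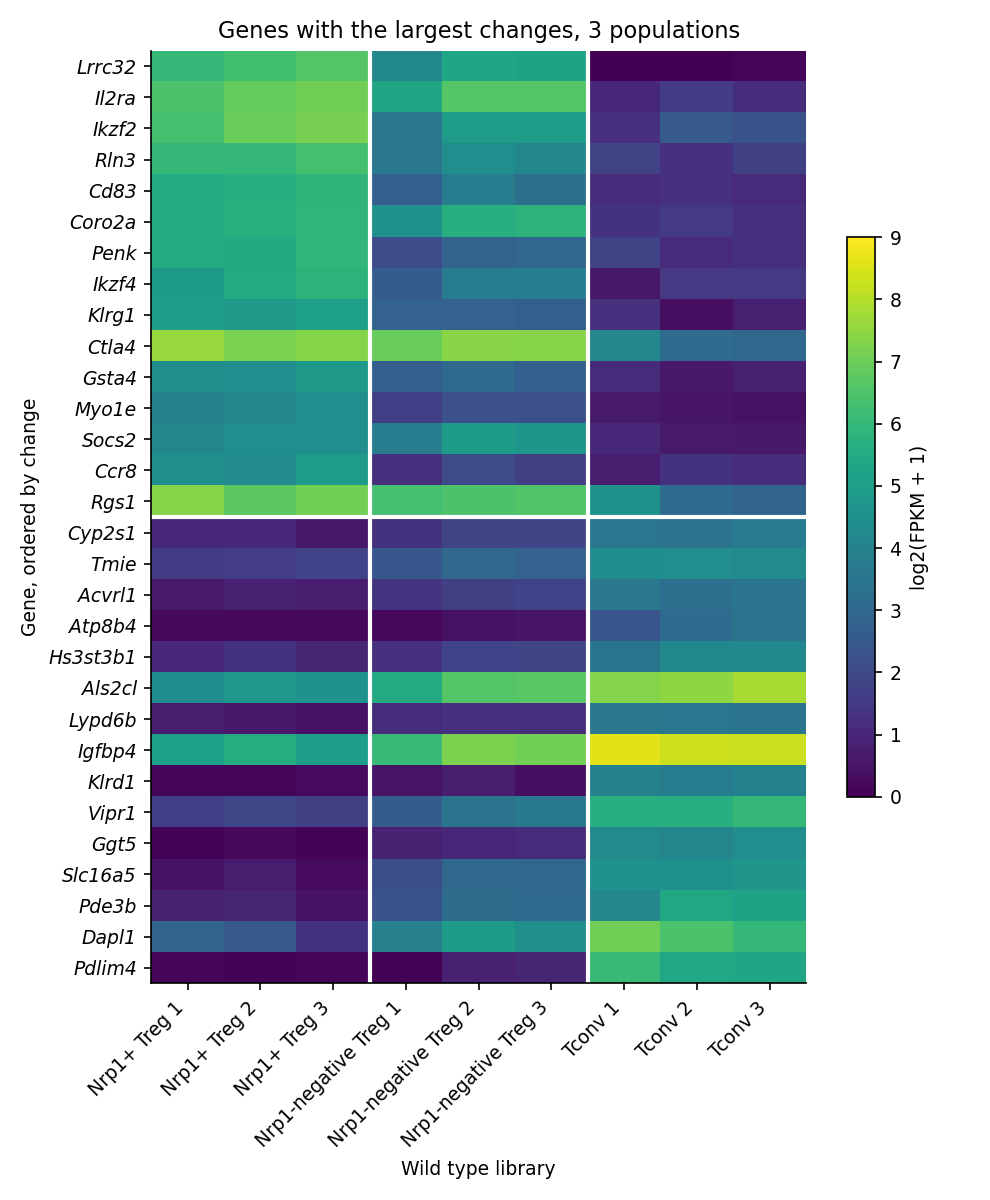
log2(FPKM + 1) of the 15 ranked genes with the largest increases (above the white line) and the 15 with the largest decreases (below it) in the 9 wild type libraries, with Nrp1+ Treg on the left, Nrp1-negative Treg in the middle and Tconv on the right. Il2ra, Coro2a, Ctla4 and Socs2 are bright in both Treg subsets, while Penk, Cd83 and Ccr8 are bright in Nrp1+ Treg.

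The same contrast in CD28-/- mice uses 6 other libraries and so bears on which of these differences recur. CD28-deficient Tconv replicate 3 carried Treg transcripts (Foxp3 at 21.1 FPKM, against 0.067 and 0.205 FPKM in replicates 1 and 2) and replicate 3 of CD28-deficient Nrp1+ Treg had RNA of Tconv genes (Pdlim4 at 8.14 FPKM, against 0.126 and 0.0332 FPKM in replicates 1 and 2), so values are also given without these 2 libraries. limma called 1613 of 11673 genes (13.8%) higher and 480 (4.11%) lower in CD28-deficient Nrp1+ Treg, and 1090 and 325 without replicate 3 of both groups. Of the 772 wild type calls higher that were tested there 768 had the same direction and 742 were called higher, or 704 without replicate 3 of both groups. Of the 387 wild type calls lower 382 had the same direction and 295 were called lower, or 383 and 238 without replicate 3. Of all 1613 and 480 calls in CD28-deficient mice, 742 and 295 were thus also wild type calls.

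The genotypes were compared gene by gene with replicate 3 of both CD28-deficient groups left out. Foxp3 changed by 6.56 ± 0.17 in wild type and 6.52 ± 0.17 in CD28-deficient mice, Il2ra by 5.55 ± 0.22 and 5.52, and Pdlim4 by -5.48 ± 0.23 and -5.57 ± 0.17. The changes were further apart for Ikzf2 (4.80 in wild type and 6.29 in CD28-deficient mice), Ctla4 (3.95 and 5.52), Penk (4.28 and 5.30) and Klrg1 (4.19 and 3.22), and none of these 4 differences was called. The median change of the wild type calls higher was 1.32 in wild type and 1.56 in CD28-deficient mice without replicate 3, and that of the calls lower -1.03 and -0.93. The difference of the contrast between genotypes, wild type minus CD28-deficient, was called for 2 of 12113 genes (0.0165%), with 362 at an unadjusted p under 0.05. A call in one genotype and not in the other is therefore not by itself a difference between them.

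Itga7, the integrin alpha 7 chain, was one of these 2. It was at 2.01, 2 and 1.83 FPKM in Nrp1+ Treg, against 4.11, 3.96 and 3.34 FPKM in Tconv of wild type mice, and at 2.95, 3.16 and 3.16 FPKM in Nrp1+ Treg, against 1.88, 1.89 and 1.78 FPKM in Tconv of CD28-deficient mice. The difference of the contrasts was -1.22 ± 0.15 (adjusted p = 0.0287, and 0.0968 without replicate 3 of both CD28-deficient groups). The microRNA locus Mir1247 was the other, listed at 0 in all libraries of this contrast but CD28-deficient Nrp1+ Treg, where it was at 39.5, 31.8 and 28 FPKM, so no fold is given.

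Without replicate 3 of both CD28-deficient groups 11 genes differed, all with the lower contrast in wild type. Il2rb was at 256, 280 and 200 FPKM in CD28-deficient Nrp1+ Treg, against 5.11, 6.86 and 59.5 FPKM in CD28-deficient Tconv, and its contrast was 2.98 in wild type and 5.28 in CD28-deficient mice (difference -2.30 ± 0.26, adjusted p = 0.0118). Itgb1 had a difference of -2.38 ± 0.28, Cxcr3 of -3.36 ± 0.31, Nkg7 of -4.17 ± 0.45 and the inflammatory caspase gene Casp1 of -2.20 ± 0.25. For Itgb1, Cxcr3 and Nkg7 every CD28-deficient Tconv library lay below every wild type Tconv library. Cxcr3 was at 42.5, 35.2 and 27.2 FPKM in wild type Tconv and at 1.78, 2.64 and 9.52 FPKM in CD28-deficient Tconv. Ccl5, which fell in wild type Nrp1+ Treg (-2.28 ± 0.52), had a change of 1.97 ± 0.20 in CD28-deficient mice without replicate 3, and the difference of these did not pass (-4.25 ± 0.74, adjusted p = 0.125). The remaining genes were Angptl2, Gpm6b, Myo1f, Nrn1 and the microRNA loci Mir1247 and Mir3058.

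**Figure D5:**
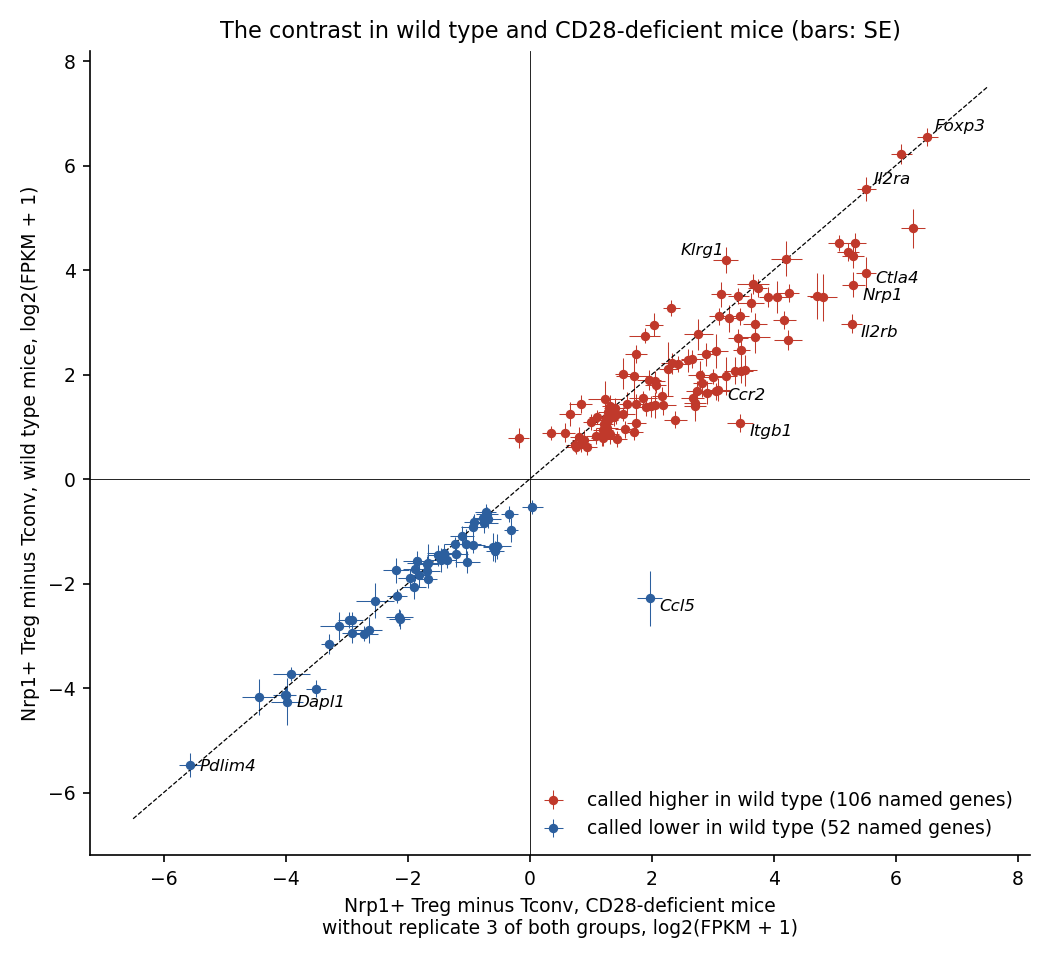
Change of the named genes called in wild type mice, Nrp1+ Treg minus Tconv on the log2(FPKM + 1) scale ± SE, in wild type (vertical axis) and in CD28-deficient mice without replicate 3 of both groups (horizontal axis), with the dashed line at equal changes. Foxp3, Il2ra and Pdlim4 lie on the line, Il2rb and Itgb1 to the right of it, and Ccl5 has opposite signs.

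Some symbols are reported as uncertain. The microRNA symbols Mir1894, Mir24-1, Mir378b, Mir5046 and Mir5107 were called higher and listed at 0 in all 3 Tconv libraries, but each was listed at 0 in between 7 and 12 of the 18 libraries, which include Treg, so no fold is given for them. Lilrb4, an inhibitory receptor gene, rose by 2.39 ± 0.17, and reads can be shared with its near copy. The annotation places Als2cl and Tmie across each other on opposite strands, and Tnfrsf9, Itgae, Cd72, Gpr15, Rgs11, Gzmk, Nfkb2 and Cd247 each overlap a protein-coding gene on the other strand. Whether the authors' values used strand is not given in the sources used here, so reads of such pairs may not be told apart.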

How the data were processed

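RNA was taken from sorted spleen cells as total RNA and read as single reads of 50 nt, per the labels' protocols. Per the submitters' processing notes, Trimmomatic 1, TopHat2 2.0.11 and Cufflinks were used with GRCm38; the annotation and the use of strand are not given in the sources used here. The deposited values are FPKM per gene symbol as the authors made them, 1 table per library; the unit follows from the tools named and from the values. Whole reads could not be recovered from them, so depth and counting error are unknown. Here the FPKM were turned into log2(FPKM + 1), genes with at least 1 FPKM in at least 3 libraries of a comparison were kept, and limma 3.58.1 (R 4.3.3) was run with a variance trend and Benjamini-Hochberg adjustment over all tested genes, with a threshold of 0.05. The fit was tested on data simulated with independent normal values. Those data held no deviation shared by equally numbered libraries and no library that stood apart, so the test does not cover either. No 2 libraries held identical values. Groups and replicate numbers come from the titles.

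The members and the 48 gene lists were chosen with earlier results of these data known. Of 926 list entries 896 were in the files and 764 were tested. Genes named are the 15 largest called changes in each direction and at most 6 called members of a list, plus a few fixed by name; others are given as examples of a list and were chosen after their values were seen. Equally numbered libraries of the populations deviated together (correlations over genes of 0.52, 0.27 and 0.31), so the numbers were taken to pair the libraries, although no label says what they share. The main fit has no term for them. Counts with it are given for some of the lists where they move by over 1.5 times. Small counts of other lists, such as those of integrins and the SLAM family, moved as well. Other alternatives were each library left out, replicate 1 of both groups left out, a pseudocount of 0.1, other filters, quantile normalization, rescaling without small RNA symbols, a wider fit and other variance settings. Positions are from GENCODE M21 on GRCm38, and promoter windows are from RefSeq on GRCm38.p6. Some genes are not reported here.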

Additional observations from a re-analysis of the deposited data

Results flagged for a closer look

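The difference of the Nrp1+ Treg minus Tconv contrast between wild type and CD28-deficient mice was past the threshold for Itga7 (-1.22 on the log2(FPKM + 1) scale). Its 3 wild type Nrp1+ Treg libraries lay below the wild type Tconv libraries, and its 3 CD28-deficient Nrp1+ Treg libraries above the CD28-deficient Tconv libraries. All of these values were between 1.78 and 4.11 FPKM. It was also past the threshold for the microRNA locus Mir1247 (-5.08), a value set by CD28-deficient Nrp1+ Treg alone, since the locus was listed at 0 in the other groups of this contrast.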

How the results depend on the processing

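Of 164 named genes that were called, 119 kept their call in all 17 alternatives. The counts of genes called moved most with the libraries used, between 774 and 1658 in all (568 to 1063 higher, 203 to 595 lower) when 1 was left out. They were 2273 (1420 higher, 853 lower) in a fit of all libraries but the 3 with over 19% in one small RNA locus, and 2066 (1348 and 718) without replicate 1 of both groups, an alternative chosen after seeing the data. The lower genes numbered 609 with the replicate block, 610 after quantile normalization and 220 after rescaling; the cause was not tested. Among named genes the block changed only the call of Bcl2 (0.61). Changes of uncalled genes turned sign for Cd28, to -0.31 without Tconv replicate 1 and in the fit without the 3 libraries and to -0.28 without replicate 1 of both groups, and for Hspa1a, to 0.62, 0.62 and 0.11 in these and to 0.18 without Nrp1+ Treg replicate 2. With 1 library left out they ranged from -0.31 to 0.33 for Cd28 and from -1.26 to 0.62 for Hspa1a. The CD28-deficient contrast had 2093 calls, 1213 to 2024 with 1 library left out. The difference between genotypes had 2 calls, 1 to 26 with 1 library left out and 11 without replicate 3 of both CD28-deficient groups. The contrast of the Treg subsets had 301 calls, 176 to 420 with 1 library left out, 968 with the block and 674 after quantile normalization. Depth is unknown, so low FPKM values carry an error that was not measured.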
